A study of Homo sapiens with 6 samples.

Results

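CC chemokines are a family of small secreted proteins, and 10 of their genes were followed here in THP-1, a human line grown from a monocytic leukaemia: CCL2, CCL3, CCL5, CCL7, CCL8, CCL13, CCL20, CCL22, CCL23 and CCL24. The genes were given by name, and they and the gene lists used below were chosen with earlier results of these data known. Each gene was read from the probe set that carries its symbol alone. Where a gene has several, the brightest by its mean over all 6 arrays was taken. Of the 10 genes, 9 had such a probe set, out of 18417 genes in all, and each of the 9 had exactly 1. CCL13 was not analysed here. The comparison was between 3 arrays of unstimulated THP-1 cells and 3 arrays of THP-1 cells given 200 nM PMA (phorbol myristate acetate, which switches on protein kinase C) for 3 days and then kept without it for 3 days. All cells were of the same line and grown in the same medium with 10% FBS. The line is a single leukaemia line and stands in for monocytes and macrophages only to that extent. The labels do not state whether the replicates are separate cultures, and p-values then reflect only how these arrays vary, perhaps for technical reasons.

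CC chemokines take their name from adjacent cysteines near the start of the mature protein, and they direct leukocyte migration through G protein-coupled receptors of the CCR family. Monocytes and macrophages are both sources and targets of them. CCL2, CCL7, CCL8 and CCL13 are the monocyte chemoattractant proteins, of which CCL2 acts mainly through CCR2. CCL3 and CCL5 act through CCR1 among others, CCL20 through CCR6, CCL22 through CCR4, CCL23 through CCR1 and CCL24, an eotaxin, through CCR3. Many CC chemokine promoters carry sites for NF-kappaB and AP-1, the transcription factors most often tied to phorbol ester and inflammatory signals.

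PMA-differentiated cells held far more CCL20 message and moderately more CCL3, CCL2, CCL5 and CCL7 than unstimulated cells, and less CCL22, CCL23 and, narrowly, CCL24. CCL8 lay in the dimmest part of every array and did not pass the test. In limma with Benjamini-Hochberg adjustment over all 18417 genes, at an adjusted p of 0.05, 5 of the 9 genes rose and 3 fell. Of all genes tested, 26.4% passed that threshold, with 13.2% higher and 13.2% lower. For 8 of the 9 genes the groups did not overlap, against 41.2% of all genes. The median log2 fold change of the 9 was 0.77, and that of all genes was −0.03. Because the 9 were chosen with earlier results known, these comparisons with all genes do not test the family. Of the 11 other CC chemokines measured, 2 rose and 1 fell, and the groups did not overlap for 7. Their median log2 fold change was 0.07.

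The stretch of 250 bases before the start site is shown for 5 of the genes, because these genes span the range of responses: CCL20, the largest rise, CCL3 and CCL7, which also rose, CCL8, a neighbour of CCL7 that did not pass, and CCL22, the steadiest fall. The sequences are RefSeq's on GRCh38.p14, given 5′ to 3′ on the gene's own strand and ending at the base before the start site: CCL20 at chr2:227813592-227813841 on the plus strand, CCL3 at chr17:36090144-36090393 on the minus strand, CCL7 at chr17:34269971-34270220 on the plus strand, CCL8 at chr17:34319185-34319434 on the plus strand and CCL22 at chr16:57358533-57358782 on the plus strand. RefSeq gives CCL3 a total of 3 start sites; the stretch shown is that of the outermost, and those of the other sites held none of the motifs searched. The CCL22 stretch lies inside the span RefSeq gives the gene, which starts at base 57357909. Capitals mark matches to 3 motifs: the AP-1 motif TGANTCA and the kappaB motif GGGNNTTTCC on both strands, and the TATA box TATAAA on the gene's strand. No matches overlapped.
CCL20: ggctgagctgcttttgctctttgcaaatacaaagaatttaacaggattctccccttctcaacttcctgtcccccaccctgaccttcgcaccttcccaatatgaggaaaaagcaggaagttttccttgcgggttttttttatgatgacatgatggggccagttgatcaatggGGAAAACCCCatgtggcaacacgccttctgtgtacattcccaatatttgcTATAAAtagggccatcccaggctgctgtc
CCL3: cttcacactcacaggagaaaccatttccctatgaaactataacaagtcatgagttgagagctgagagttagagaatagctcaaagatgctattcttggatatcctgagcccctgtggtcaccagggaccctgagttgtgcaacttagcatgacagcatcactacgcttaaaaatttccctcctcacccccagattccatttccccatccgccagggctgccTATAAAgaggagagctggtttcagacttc
CCL7: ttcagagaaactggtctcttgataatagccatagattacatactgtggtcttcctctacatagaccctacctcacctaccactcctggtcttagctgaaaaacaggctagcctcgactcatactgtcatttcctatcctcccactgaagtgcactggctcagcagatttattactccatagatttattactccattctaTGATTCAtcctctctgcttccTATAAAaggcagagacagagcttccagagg
CCL8: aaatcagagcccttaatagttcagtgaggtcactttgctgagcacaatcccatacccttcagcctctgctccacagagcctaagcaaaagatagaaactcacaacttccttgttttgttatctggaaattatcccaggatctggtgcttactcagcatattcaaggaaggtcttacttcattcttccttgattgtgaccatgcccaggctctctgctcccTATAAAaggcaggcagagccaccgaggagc
CCL22: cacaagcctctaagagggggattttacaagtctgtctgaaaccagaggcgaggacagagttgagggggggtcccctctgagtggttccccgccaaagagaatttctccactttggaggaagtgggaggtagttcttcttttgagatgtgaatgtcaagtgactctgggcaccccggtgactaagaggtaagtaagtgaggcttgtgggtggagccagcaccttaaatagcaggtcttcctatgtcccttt

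Of these 5, CCL20 alone held the kappaB motif, from 79 to 70 bases before its start and read on the opposite strand. That motif is found in 1.73% of the 35116 promoter stretches of the same length in the RefSeq table. CCL7 alone of the 5 held the AP-1 motif, from 51 to 45 bases before its start, a motif found in 6.57% of all stretches. Of the genes not printed, CCL24, which fell, also held the AP-1 motif. It lay from 13 to 7 bases before the start in the first CCL24 window and from 142 to 136 bases in the second. CCL23, which fell too, held a TATA box from 15 to 10 bases before its start. CCL13, which has no expression value here, held a TATA box from 31 to 26 bases before its start. No stretch was available for CCL2 and CCL5, which rose, so they were not searched. A TATA box stood from 29 to 24 bases before the start in CCL20 and CCL3 and from 30 to 25 bases in both CCL7 and CCL8, and it occurs in 6.80% of all stretches. CCL22 had none of the 3 motifs in this window. A match describes letters only and was not tied to binding of any factor.

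CCL20 recruits CCR6-bearing lymphocytes and dendritic cells. Its log2 values were 4.77, 4.37 and 4.94 on the unstimulated arrays 1 to 3, and 11.86, 12.34 and 9.55 on the PMA arrays 1 to 3. Every PMA array lay above every unstimulated array, with PMA replicate 3 well below the other PMA arrays. The mean went from 4.69 ± 0.29 to 11.25 ± 1.49 (SD, n = 3 each). The log2 fold change was 6.55 ± 0.64 (standard error), a 93.9-fold rise, with an adjusted p of 0.00028 in limma. The unstimulated level was close to the lower quartile of all probe sets (4.46 to 4.57 over the arrays), a range in which background cannot be separated from signal, which leaves the size of the rise uncertain. Without PMA replicate 3 the fitted rise was 169-fold (log2 7.40 ± 0.20).

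CCL3, also known as MIP-1alpha, attracts monocytes and T cells. It measured 6.23, 7.76 and 7.81 on the unstimulated arrays and 9.82, 10.39 and 8.38 on the PMA arrays. The groups did not overlap, but unstimulated replicate 1 differed by −1.55 from the mean of the other unstimulated arrays and PMA replicate 3 was close above the highest unstimulated value. The log2 fold change was 2.26 ± 0.58 (adjusted p = 0.0227, limma), a 4.80-fold rise with a 95% interval of 0.93 to 3.60 on the log2 scale. The call was lost without PMA replicate 1 (adjusted p = 0.0844, limma) or PMA replicate 2 (adjusted p = 0.0676), and stood at 0.0493 without unstimulated replicate 1, with a log2 fold change of 1.75. CCL3 has near-identical copies in the genome, and 3 further probe sets carry its symbol along with others, so its signal may be shared with those copies.

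CCL2, the main monocyte attractant of the family, measured 7.91, 8.08 and 8.07 on the unstimulated arrays and 10.44, 9.99 and 8.86 on the PMA arrays. The unstimulated arrays were tight and all PMA arrays were above them. Its log2 fold change was 1.74 ± 0.35 (adjusted p = 0.00845, limma), a 3.34-fold rise. The 95% interval was 0.93 to 2.55 on the log2 scale. CCL2 kept its call without each array in turn.

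CCL7, a monocyte attractant encoded beside CCL2, was dim throughout. It measured 4.10, 3.99 and 4.09 on the unstimulated arrays and 5.14, 4.52 and 4.84 on the PMA arrays, so the groups were apart. The log2 fold change was 0.77 ± 0.15 (adjusted p = 0.00768, limma). Its unstimulated mean of 4.06 was below the lower quartile of every array, so the size of this rise is uncertain. CCL8, the next monocyte chemoattractant protein along the chromosome, measured 3.56, 3.49 and 3.53 on the unstimulated arrays and 3.35, 3.58 and 3.56 on the PMA arrays. All 6 CCL8 values were below the lower quartile and the groups overlapped, with a log2 difference of −0.03 (95% interval −0.25 to 0.19, adjusted p = 0.859, limma).

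CCL5, or RANTES, attracts T cells, monocytes and eosinophils, and was already bright in unstimulated cells. It measured 10.32, 10.34 and 10.29 on the unstimulated arrays and 11.66, 11.65 and 10.71 on the PMA arrays. PMA replicates 1 and 2 were nearly equal, and PMA replicate 3 lay between them and the unstimulated arrays. The log2 fold change was 1.02 ± 0.24 (adjusted p = 0.017, limma), a 2.03-fold rise. This call did not survive the loss of PMA replicate 1 (adjusted p = 0.067, limma), PMA replicate 2 (0.0559), unstimulated replicate 2 (0.0604) or unstimulated replicate 3 (0.0593), while without PMA replicate 3 the log2 fold change was 1.34 ± 0.10 (adjusted p = 4.52e-05).

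CCL22, made by macrophages and dendritic cells and a ligand of CCR4 on regulatory and type 2 helper T cells, fell. It measured 7.18, 7.26 and 7.14 on the unstimulated arrays and 6.33, 6.0 and 6.07 on the PMA arrays. All PMA arrays were below all unstimulated ones and lay close together. The log2 fold change was −1.06 ± 0.11 (adjusted p = 0.000396, limma), and the call held without each array in turn. CCL23, a CCR1 ligand of monocytes, measured 7.34, 6.90 and 7.15 on the unstimulated arrays and 6.45, 5.95 and 6.20 on the PMA arrays. It fell by 0.93 ± 0.16 on the log2 scale (adjusted p = 0.00423, limma), without overlap between the groups, and kept its call without each array in turn. CCL24, an eosinophil attractant, measured 5.42, 5.43 and 5.54 on the unstimulated arrays and 4.97, 5.30 and 4.99 on the PMA arrays. Its log2 fold change of −0.38 ± 0.11 was close to the threshold (adjusted p = 0.0441, limma). The call was kept without PMA replicate 2 and lost without any other array (adjusted p from 0.0636 to 0.153), and also when arrays were centred on their medians (0.108) or quantile-normalized again (0.0929).

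**Figure D1:**
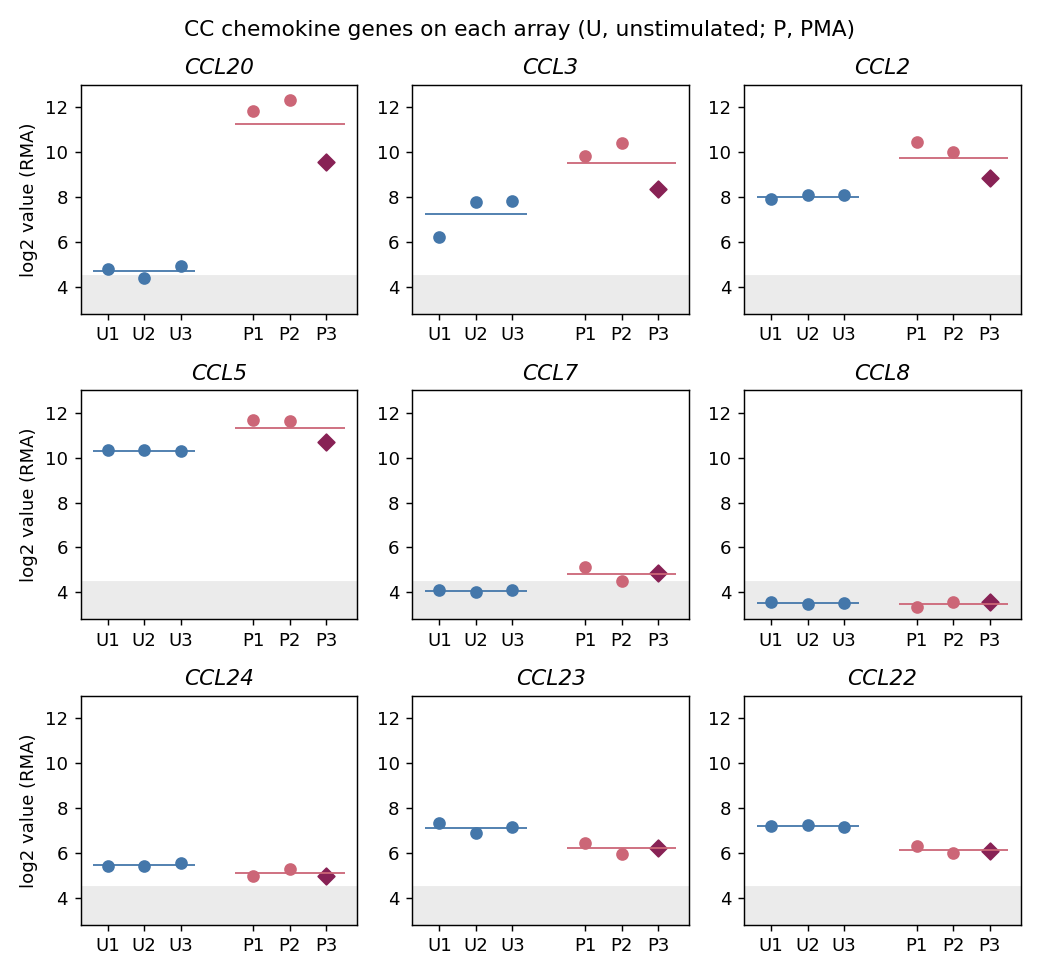
Log2 values of the 9 CC chemokine genes on each array (U1 to U3, unstimulated replicates 1 to 3; P1 to P3, PMA replicates 1 to 3), with lines at the group means and grey shading below the smallest lower quartile of an array (4.46). PMA replicate 3, drawn as a diamond, is the lowest PMA array for CCL20, CCL3, CCL2 and CCL5 and lies between the other PMA arrays for CCL7, CCL23 and CCL22.

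The genes that rose differed in how low they were on PMA replicate 3. Relative to the mean of the other PMA arrays, that array was lower by 2.55 for CCL20 (a difference of −2.55 on the log2 scale), and the differences were −1.73 for CCL3, −1.35 for CCL2 and −0.95 for CCL5. For CCL7 the difference was 0.02, but its rise of 0.77 near the lower quartile left little room for a drop of those sizes. For the genes that fell the difference was −0.09 for CCL22, 0.00 for CCL23 and −0.15 for CCL24. The array was therefore low for 4 of the 5 genes that rose, and close to the others for the genes that fell.

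Measured against the mean of the unstimulated arrays, PMA replicate 3 was higher by 4.85 for CCL20, 1.11 for CCL3, 0.84 for CCL2, 0.39 for CCL5 and 0.78 for CCL7 on the log2 scale. PMA replicates 1 and 2 together were higher by 7.40, 2.84, 2.19, 1.34 and 0.77 for the same genes in the same order. CCL20, CCL3 and CCL2 lay at least 1 log2 unit below both other PMA arrays on PMA replicate 3, 3 of the 9 genes. This was so for 0.814% of all genes and for 11.7% of the 952 genes that rose at least 2-fold. A single array gives no test of this difference.

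Monocytic markers went different ways with PMA, and those that rose were not low on PMA replicate 3 to the extent of CCL20. The lipopolysaccharide co-receptor CD14 was 7.51, 9.67 and 9.65 on the unstimulated arrays, well below the others on replicate 1. On the PMA arrays CD14 was 11.56, 11.37 and 11.29, the integrin chain ITGAM 11.14, 10.91 and 11.03, and the M-CSF receptor CSF1R 11.81, 11.65 and 11.24. These 3 rose by limma, while LYZ, the lysozyme gene, fell from 12.76, 12.42 and 12.54 unstimulated to 9.95, 9.84 and 9.63 with PMA (adjusted p = 8.72e-06), and CD68, CD4 and SPI1 did not pass. All 7 monocytic markers measured of 9 listed were above the lower quartile on every array, with mean levels from 9.91 to 10.27 unstimulated and from 10.58 to 10.72 with PMA. For markers of other cell types, mean levels on any array were from 5.38 to 5.65 for 5 T and NK cell genes, from 5.30 to 5.61 for 3 B cell genes, from 4.67 to 4.79 for 4 epithelial genes, from 6.72 to 7.06 for 5 fibroblast and endothelial genes, of which the adhesion molecule PECAM1 is also made by monocytes, and from 5.05 to 5.25 for 4 erythroid and megakaryocytic genes. The T cell marker CD3E was at most 4.84, the B cell marker MS4A1 at most 3.99 and the epithelial marker EPCAM at most 4.29, but not all were dim: the cytotoxic granule gene NKG7 was 7.97, 8.09 and 8.21 unstimulated and 6.89, 6.86 and 7.06 with PMA, a fall (adjusted p = 0.000204, limma), the adhesion molecule NCAM1 rose (adjusted p = 0.000406) and the B cell factor PAX5 reached 6.85. The T cell marker CD3D (4.76, 4.82 and 5.41 on the PMA arrays) and the endothelial cadherin CDH5 (5.17, 5.35 and 6.04) were highest on PMA replicate 3. Of the same lists, CD3E, NCAM1 and NKG7 were also highest there. PDGFRB (6.51, 6.55 and 6.04) and PECAM1 (11.18, 11.08 and 10.92) were lowest there, and CD2, COL1A1 and COL3A1 lay between the other PMA arrays. The part of any other cell type in the values of PMA replicate 3 was not tested.

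Leaving out PMA replicate 3 kept the 5 genes that rose and the falls of CCL22 and CCL23, but not that of CCL24 (adjusted p = 0.101, limma). In that fit 14.1% of all genes were higher and 13.3% lower. The standard error of CCL20 went from 0.64 to 0.20, that of CCL2 from 0.35 to 0.15 and that of CCL5 from 0.24 to 0.10, while those of CCL22 (0.11 to 0.13) and CCL23 (0.16 to 0.18) grew slightly.

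**Figure D2:**
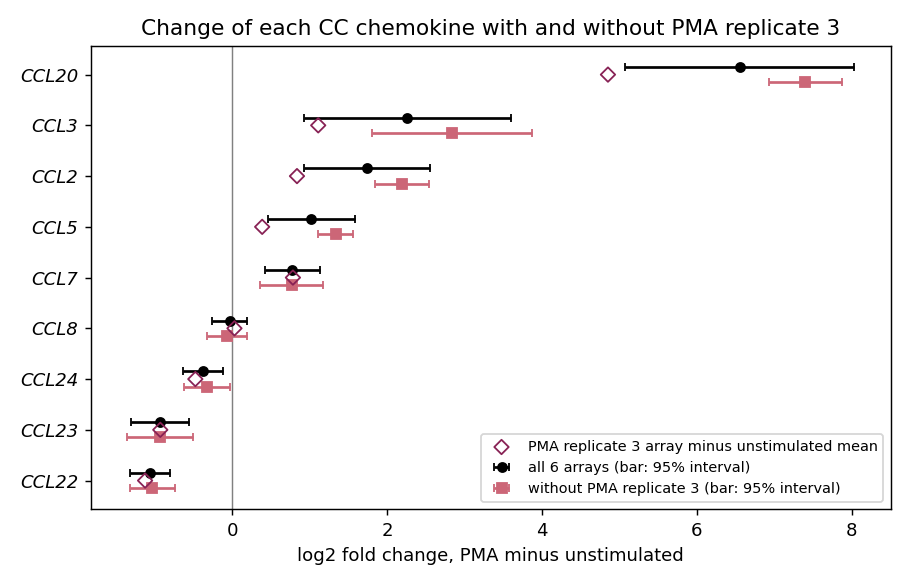
Log2 fold change (PMA minus unstimulated) of the 9 CC chemokine genes from all 6 arrays (circles, 95% interval) and without PMA replicate 3 (squares, 95% interval), with the PMA replicate 3 array minus the unstimulated mean as open diamonds. The open diamonds sit to the left of both fits for CCL20, CCL3, CCL2 and CCL5 and on them for CCL7.

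Most CC chemokine genes lie in 2 groups on chromosome 17. By RefSeq on GRCh38.p14, 6 of them, with CCL2, CCL7, CCL8 and CCL13, span 107949 bases from 34255285 to 34363233, and 10 of them, with CCL5, CCL23 and CCL3, span 341383 bases from 35871491 to 36212873. CCL20, CCL22 and CCL24 lie apart, on chromosomes 2, 16 and 7. Genes within a chromosome 17 group did not all change alike. In the first, 3 of 5 measured genes rose and none fell by limma (1, CCL11, at an unadjusted p of 0.05): CCL2, CCL7 and, at the far end, CCL1, while CCL11 (−0.30 ± 0.10, adjusted p = 0.0505) and CCL8 between them did not pass. In the second, of 6 measured genes CCL5 and CCL3 rose and CCL23 fell. Of all genes tested, 13.2% rose and 13.2% fell.

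**Figure D3:**
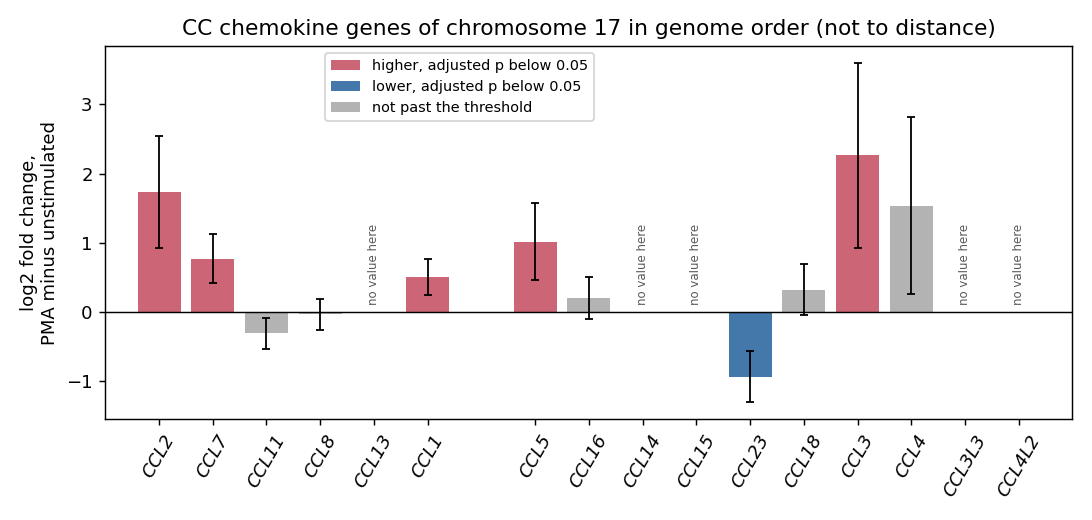
Log2 fold change with its 95% interval for the CC chemokine genes of the 2 chromosome 17 groups, in genome order and not drawn to distance. CCL23, the gene that fell, stands between CCL5 and CCL3, which rose, and genes with no value here are marked.

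Among the other CC chemokines, 11 of 18 listed were measured. By limma 2 rose, 1 fell and 8 did not pass, with a median log2 fold change of 0.07. Over all genes 13.2% rose and 13.2% fell, with a median of −0.03. CCL21, a CCR7 ligand of lymphoid tissue, rose by 0.65 ± 0.10 (adjusted p = 0.00218), from 5.89, 5.86 and 5.97 unstimulated to 6.70, 6.46 and 6.52 with PMA. CCL1, a CCR8 ligand, rose by 0.51 ± 0.11 (adjusted p = 0.013), and lost its call without unstimulated replicate 2 (0.0538). CCL28, a mucosal chemokine, fell (log2 fold change −1.23 ± 0.35, adjusted p = 0.0361, limma). It measured 6.10, 5.60 and 7.14 on the PMA arrays and 7.23, 7.62 and 7.68 on the unstimulated ones, so here PMA replicate 3 was the array nearest to the unstimulated values. The CCL28 call was lost without PMA replicate 1 (0.121), PMA replicate 2 (0.0853), unstimulated replicate 2 (0.119) or unstimulated replicate 3 (0.117).

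CCL4, or MIP-1beta, is the chromosomal neighbour of CCL3 and, like it, has near-identical copies. It measured 3.97, 3.83 and 4.04 on the unstimulated arrays and 5.53, 6.77 and 4.15 on the PMA arrays. Its unstimulated values and that on PMA replicate 3 were below the lower quartile of every array, so the size of any change is uncertain. PMA replicate 3 was barely above the unstimulated arrays, and the gene did not pass (1.54 ± 0.55, adjusted p = 0.0799, limma). Once PMA replicate 3 was left out its call was made at 2.20 ± 0.31 (adjusted p = 0.00128, limma), as were those of CCL18 (0.46, adjusted p = 0.047) and CCL11 (−0.37, adjusted p = 0.0293).

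Of 14 receptors listed, 12 were measured, and by limma 1 rose, 2 fell and 9 did not pass. The shares over all genes were 13.2% higher and 13.2% lower. CCR2, the receptor of CCL2 and CCL7, fell while those ligands rose: it measured 9.94, 9.53 and 9.78 on the unstimulated arrays and 4.70, 3.83 and 4.30 on the PMA arrays. Its values on PMA replicates 2 and 3 were below the lower quartile of the arrays, so the size of the fall is uncertain and its sizes on single PMA arrays cannot be compared. CCR1, the receptor of CCL3, CCL5 and CCL23, was bright in both groups, at 9.31 ± 0.22 unstimulated and 8.97 ± 0.21 with PMA (SD, n = 3 each). Its difference of −0.33 did not pass (95% interval −0.68 to 0.01, adjusted p = 0.151, limma). CCR6, the receptor of CCL20, was dim on all arrays (4.25 to 4.56), as was CCR4, the receptor of CCL22 (3.93 to 4.28), and neither passed.

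Of the 4 atypical receptors measured, 1 fell, 1 rose, and ACKR1 (0.11, adjusted p = 0.527, limma) and ACKR4 (0.20, adjusted p = 0.408) overlapped between the groups and did not pass. ACKR2, a decoy receptor that takes up and degrades inflammatory CC chemokines, fell from 6.67, 6.60 and 6.47 to 5.66, 5.30 and 5.48, a log2 fold change of −1.10 ± 0.12 (adjusted p = 0.000448, limma). CCRL2, an atypical receptor that does not signal as classical receptors do, rose from 5.18, 5.12 and 5.40 to 6.33, 6.15 and 6.34, a log2 fold change of 1.04 ± 0.11 (adjusted p = 0.000422, limma). The groups did not overlap for ACKR2 or CCRL2, and both calls held without each array in turn.

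**Figure D4:**
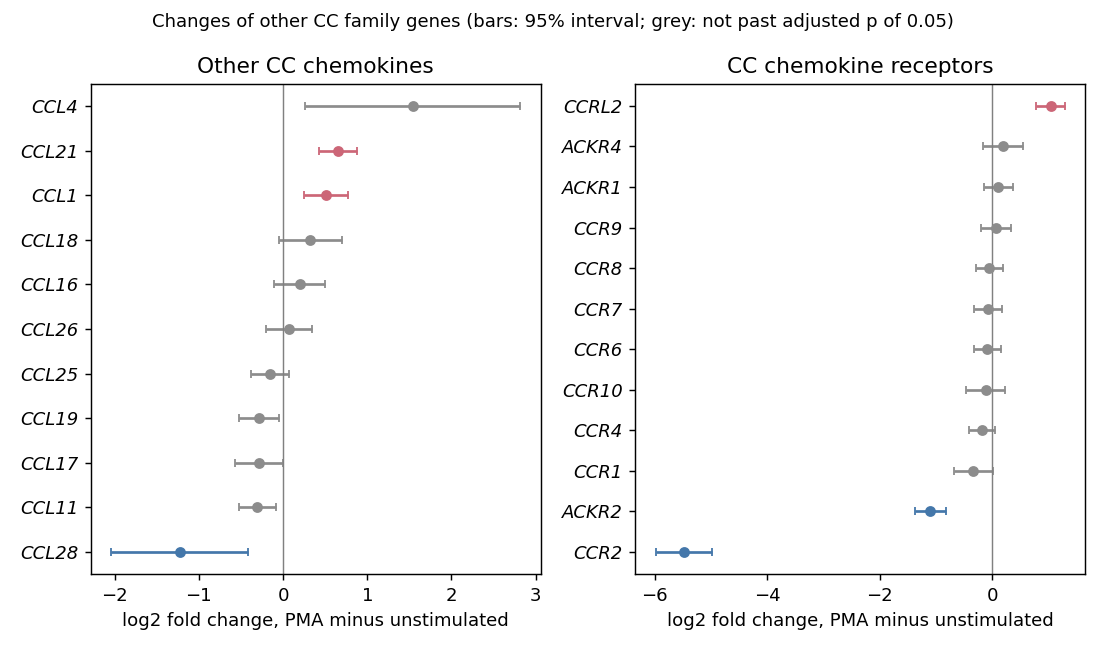
Log2 fold change (PMA minus unstimulated) with its 95% interval for the 11 other CC chemokines and 12 CC chemokine receptors measured, coloured where the adjusted p was under 0.05. CCR2 (−5.48) is far below the rest, and CCL4 has a wide interval (0.26 to 2.82).

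Genes of NF-kappaB signalling, and cytokines that can act on CC chemokine expression, were counted from lists. The part of the NF-kappaB genes in the chemokine values was not tested. Of 15 NF-kappaB subunits, inhibitors and kinases, 9 rose, 1 fell and 5 did not pass by limma, with a median log2 fold change of 0.59. Among all genes 13.2% rose and 13.2% fell, with a median of −0.03. The inhibitor NFKBIE (1.53 ± 0.14, adjusted p = 0.00018), the deubiquitinase TNFAIP3 (1.42 ± 0.28, adjusted p = 0.00809) and the subunit NFKB2 (0.99 ± 0.15, adjusted p = 0.00223) rose, and the kinase IKBKB (−0.55 ± 0.10, adjusted p = 0.00628) fell. On the unstimulated arrays TNFAIP3 measured 7.75, 8.78 and 8.88, and the low value of replicate 1 enlarged its fitted rise. TNFAIP3 measured 9.70, 9.90 and 10.07 and NFKBIE 9.69, 9.49 and 9.83 on the PMA arrays, so neither was low on PMA replicate 3. NFKB2, at 7.86, 7.99 and 7.61, was lowest there. Of the 15 genes, PMA replicate 3 was the lowest PMA array for 5, between the others for 4 and the highest for 6. The main activating subunit RELA did not pass (0.01 ± 0.10, adjusted p = 0.973).

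Of 14 cytokines known to act on CC chemokine expression, 13 were measured. By limma 4 rose, none fell (0 also at an unadjusted p of 0.05 and by the gene-wise test) and 9 did not pass. The shares of all genes were 13.2% higher and 13.2% lower. IL1B, a strong inducer of CCL20 and CCL2, measured 12.99, 13.12 and 12.05 on the PMA arrays against 5.66, 6.40 and 6.37 on the unstimulated ones. The macrophage growth factor CSF1 measured 11.06, 11.34 and 9.0 on the PMA arrays and 6.15, 6.87 and 6.70 on the unstimulated ones. IL1A measured 5.54, 6.53 and 4.35 with PMA and 3.84 to 3.98 unstimulated, and its call (adjusted p = 0.0414, limma) was lost without any array other than PMA replicate 3 (0.0608 to 0.12). TNF, at 9.43, 9.84 and 7.91 with PMA and 6.30, 9.58 and 9.43 unstimulated, overlapped between the groups and did not pass (adjusted p = 0.683, limma). These cytokines were thus also lowest among the PMA arrays on replicate 3, as were 9 of the 13 measured, against 4 of the 9 CC chemokines and 6628 of all 18417 genes. Those 9 cytokines include IL4, IFNB1 and IFNG, dim in both groups, and IL17A (5.41, 5.41 and 5.35 with PMA). None of these passed, and their order among the PMA arrays carries little weight. Only 3 of the 13 were at least 1 log2 unit below both other PMA arrays on replicate 3, against 0.814% of all genes. The part of the cytokines in the chemokine values was not tested.

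The genes whose values over the 6 arrays were most like those of CCL20, among 3156 genes with a range of at least 1 log2 unit, were BCL2A1, an anti-apoptotic BCL2 relative (Pearson r = 0.9997), the clock factor BMAL2 (0.9995), the protease inhibitor TFPI2 (0.9995), the protease PRSS23 (0.9993) and the TNF family ligand TNFSF15 (0.9991). BCL2A1, for example, measured 5.20, 4.92 and 5.30 unstimulated and 10.19, 10.33 and 8.48 with PMA. Those most like CCL2 were the oxidase AOX1 (0.9976), the calcium-binding protein S100B (0.9975), the phosphatase PTPRS (0.9974), the antibacterial protein BPI (0.9969) and the collagen chain COL6A3 (0.9952). All 10 were lower on PMA replicate 3 than on the other PMA arrays and above the unstimulated arrays there. CCL20 and CCL2 have that pattern themselves, so it follows from how the 10 genes were picked. These correlations are a description over 6 arrays that fall in 2 groups, and carry no test.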

How the data were processed

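Affymetrix arrays measured total RNA of 3 unstimulated and 3 PMA-treated THP-1 samples. Values in the authors' deposited table are on the log2 scale, by probe set. RMA and Partek were named in the submitters' processing notes, without versions. RMA compresses changes near background. Of 33297 probe sets, 19460 carried a single symbol in the platform annotation, and 19429 of these matched the current gene table (GRCh38.p14) by gene ID. The brightest per gene gave 18417 genes. Groups follow the sample titles. Groups were compared with lmFit and eBayes of limma 3.58.1 (R 4.3.3), with no covariate, with Benjamini-Hochberg adjustment over all genes, no filter on dim genes and a threshold of 0.05; the steps were tested on simulated data. The number of arrays limits the precision. Promoter sequences came from RefSeq. All 10 genes are named whatever their values, and listed genes by their calls; genes like CCL20 and CCL2 were ranked by Pearson correlation. Members and lists were chosen with earlier results of these data known. Other normalizations, dim filters, probe set rules, variance models, thresholds, a replicate block and leaving out each array were tried. Figures were drawn with matplotlib 3.10.9.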

Additional observations from a re-analysis of the deposited data

How the results depend on the processing

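Of the 9 CC chemokine genes, none changed direction with a call under any alternative run, and CCL20 and CCL22 kept their calls in every one that tested them. Without each array in turn, from 3 to 5 of the 9 rose and from 2 to 3 fell; among the other CC chemokines from 1 to 4 rose and from 0 to 2 fell, and from 2 to 4 inducing cytokines rose. The gene-wise test without shared variance, with few degrees of freedom, called 1 CC chemokine higher and 1 lower, 1 other CC chemokine higher and 0 lower, 5 NF-kappaB genes higher and 2 cytokines higher. Treat against a 1.5-fold change gave 1 higher and 1 lower, 0 and 0 of the others, 1 and 0 NF-kappaB genes, and 2 cytokines higher. At an adjusted p of 0.01, 3 CC chemokines, 1 other CC chemokine and 2 cytokines were higher, and 0 other CC chemokines lower. Leaving out genes below the median removed dim members and gave 0 CC chemokines lower, 0 others higher, 0 receptors higher, 1 receptor lower and 2 cytokines higher. The lower count of the other CC chemokines was 2 without the dimmest 25% of genes, 3 with array quality weights and 0 when every probe set was tested; the cause was not tested. An alternative chosen after seeing the data, without PMA replicate 3 and unstimulated replicate 1, gave 4 others higher and 3 lower. Shares of all genes called were taken only for the main fit and the fit without PMA replicate 3. Whether the listed genes lost calls more often than other genes under the other settings was not tested.

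The replicate block gave 5 CC chemokines higher and 2 lower, and CCL24 lost its call (adjusted p = 0.0662, limma). NFKBIB lost its call too (0.0525). The replicate numbers were not taken as pairs: the deviations of same-numbered arrays correlated over genes at 0.18, −0.02 and 0.05. Centring arrays on their medians moved the median log2 fold change of all genes by 0.09 and the share of calls that were higher from 50.1% to 61.8%. Differences near the lower quartile of the arrays, as for CCL7 and CCL8, are limited by background signal.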
